A study of Mus musculus with 12 samples.

Results

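The genes described here are the feedback regulators of cytokine signalling in regulatory T cells (Treg), namely Cish, Socs1, Socs2, Socs3, Socs4, Socs5 and Socs6 of the SOCS family and the kinases Pim1, Pim2 and Pim3. They were taken by gene name, 10 of the 41457 genes in the tables, and each was followed through all 12 libraries. The study asked how Treg are affected by loss of the β2-integrin chain CD18, and RNA was sequenced from mouse splenic Treg after overnight culture. Treg were sorted as RFP+CD4+ cells, the RFP coming from a reporter strain that was crossed with the Foxp3Cre mice. Every culture contained 5 U/mL recombinant human IL-2. The 4 groups held 3 libraries each. CD18wt Treg came from Foxp3Cre mice whose CD18 gene was not floxed, and CD18Foxp3 Treg from littermates with CD18 fl/fl, in which the Cre expressed from Foxp3 removes exon 3 of Itgb2 in FOXP3-expressing cells. Unstimulated Treg had IL-2 alone, and stimulated Treg had in addition agonistic antibodies, 1 µg/mL anti-CD3 and 2 µg/mL anti-CD28, which engage the T cell receptor and its costimulator. All groups thus carried the Cre and the reporter and received IL-2, and no culture without the cytokine was analysed here. Ages of the mice were not given for these libraries. The labels call the libraries biological replicates without naming animals, so the tests measure the spread between these samples. The names of the deposited tables carry a number that recurs in the unstimulated and the stimulated table of the same genotype and replicate. What this number marks is not stated in the sources used here. If it marks an animal, the libraries of both cultures are pairs, and the tests on stimulation treat them as independent. Taking the replicate number as a block changed the exon call of 1 member, Pim2 in CD18Foxp3 Treg.

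A cytokine such as IL-2 binds its receptor on the T cell, the receptor activates JAK kinases, and these phosphorylate STAT factors, which enter the nucleus. Among the genes that STAT5 and its relatives switch on are those of the SOCS family, whose proteins bind to receptors or JAK kinases and carry a SOCS box that recruits a ubiquitin ligase, so that they damp the signal that induced them. The PIM kinases are induced in the same way but act in the other direction: they are active as soon as they are made, have no need of an activating phosphorylation, and promote survival, growth and cell cycle entry. Treg make little IL-2 themselves, depend on IL-2 from other cells, and carry the high-affinity receptor throughout, which makes this loop part of their normal state.

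The libraries held 10665174 to 19005482 exon reads. Itgb2, the deleted gene, lay at 387 to 465 TPM (exon reads scaled to exon length and to the library's total) in unstimulated CD18wt and at 229 to 257 TPM in unstimulated CD18Foxp3 libraries. After stimulation it lay at 329 to 331 TPM and at 131 to 202 TPM, so each library followed its label, with reads from the exons outside the deletion still counted. The 8 Treg markers were all above 1 TPM in every group. Of markers of other cells, Ncr1 was at 0 in all 12 libraries and Cd8a reached at most 1.21 TPM, but Lyz2 reached 15.6 TPM. Of 8 markers of CD8 T cells and NK cells, 4 had a mean of at least 1 TPM in unstimulated CD18wt Treg. There were 5 such markers in unstimulated CD18Foxp3 Treg and 3 in each stimulated group. Summed TPM was lower in stimulated than in unstimulated libraries for 8 B cell markers (8.79 to 19.9 against 22.7 to 30.8), 8 markers of CD8 T cells and NK cells (14.9 to 31.5 against 36.0 to 58.5), 10 myeloid markers (0.706 to 2.77 against 2.82 to 16.1) and, with overlap, 7 erythroid markers (0.234 to 4.89 against 2.47 to 58.2). It was higher for the 5 genes listed as plasma cell markers (145 to 204 against 69.8 to 88.5). These were Sdc1, Jchain, Prdm1, Tnfrsf17 and Xbp1, of which 3 had a mean of at least 1 TPM in each group. Which cells made this RNA was not tested, and the sum does not show plasma cells. The part of these differences in the results on stimulation was not tested. Some libraries stood apart. By a chi-square of counts per gene, replicate 1 of stimulated CD18Foxp3 Treg was farthest from the others of its group (58.9 and 64.4, where all replicate pairs without it lay between 6.11 and 41.3), and replicate 3 of unstimulated CD18wt Treg was next in its distance from both others (41.3 and 39.8). Replicate 2 of stimulated CD18wt Treg was the lowest of its group for 52.8% of the 11642 genes with a mean of at least 1 TPM, and for 4 members. Replicate 3 of unstimulated CD18wt Treg had the fewest exon reads and the smallest share of reads in introns (3.32%, against 3.66% to 5.99% in the others). It was the lowest library of its group for 7 of the 10 members, against 50.9% of those 11642 genes.

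All 10 members were expressed in every library, with 166 to 9694 exon reads per gene and library, and all passed the filter on low counts. TPM divides reads by the whole annotated exon length of a gene, so levels of different genes can be set side by side only roughly. That length was 9531 bases for Socs2 and 6419 for Cish, against 3362 for Pim1 and 2891 for Socs3. Where the transcripts present are shorter than this length, TPM understates the gene, which bears on the ranks and shares below. Pim1 had the highest level of the members in every group, and Socs6 the lowest. In unstimulated CD18wt Treg the order ran from Pim1 (208 TPM) over Socs3 (86.1), Cish (43.4), Socs1 (37.9), Pim2 (34.9), Pim3 (30.6), Socs4 (20.2), Socs5 (13.4) and Socs2 (9.56) to Socs6 (8.77). Pim1 was clear of Socs3 there, but each neighbouring pair from Socs3 to Socs4 overlapped between libraries, as did Socs2 and Socs6. In stimulated CD18wt Treg the order was Pim1 (509 TPM), Cish (199), Socs1 (157), Pim3 (119), Pim2 (112), Socs2 (77.2), Socs3 (51.8), Socs4 (31.4), Socs5 (18.7) and Socs6 (10.8). Neighbours from Cish to Pim2 overlapped, and those from Pim2 on were separate. Socs3 thus went from the second to the seventh place, and Socs2 from the ninth to the sixth. Of the TPM of the 7 SOCS family members together, Socs3 made up 38.4% ± 7.21 (SD, n = 3) in unstimulated and 9.46% ± 0.60 in stimulated CD18wt Treg, and 53.1% ± 3.33 and 9.79% ± 2.70 in CD18Foxp3 Treg.

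**Figure D1:**
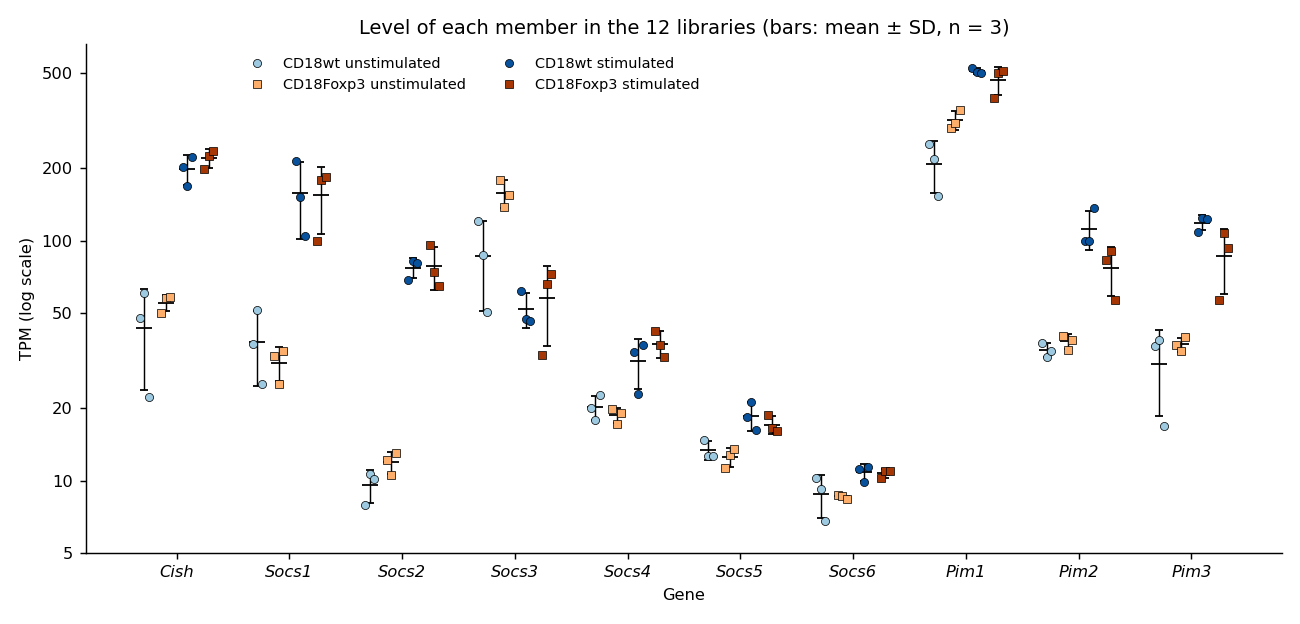
Level of each member in TPM on a log axis, by library, with the mean and SD of the 3 libraries of each group; circles are CD18wt and squares CD18Foxp3, pale unstimulated and dark stimulated. The dark points lie above the pale ones for Cish, Socs1, Socs2, Pim1, Pim2 and Pim3, and narrowly so for Socs4. They lie below the pale ones for Socs3 in CD18Foxp3 Treg, and close to them for Socs5 and Socs6.

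The first question is what stimulation through the T cell receptor did to these genes in CD18wt Treg cultured in IL-2. Counts were compared by edgeR's quasi-likelihood test over all genes, and a gene is called here when it changed at least 1.5-fold and its p, adjusted over all genes by the Benjamini-Hochberg method, was no higher than 0.01. Cish, Socs1, Socs2, Pim1, Pim2 and Pim3 rose, Socs3 fell, and Socs4, Socs5 and Socs6 were not called. That is 6 of 10 members higher and 1 lower, where 18.7% of the 11930 genes tested were called higher and 14.9% lower. The median log2 fold change was 1.09 over the members and 0.02 over all genes tested. In CD18Foxp3 Treg, 5 of 10 members were called higher (Cish, Socs1, Socs2, Socs4 and Pim3) and Socs3 was called lower, where 20.9% of 12019 genes tested were called higher and 17.6% lower. The median there was 0.63 over the members and 0.01 over all genes. Levels in TPM rose more than these fold changes: the median gene was 0.38 higher on the log2 scale in TPM than in the fit in CD18wt Treg, and 0.34 higher in CD18Foxp3 Treg. On the TPM scale (limma), 81.3% of called genes were higher in CD18wt Treg against 55.7% in the fit, and 76.6% against 54.3% in CD18Foxp3 Treg. In TPM, every stimulated library lay above every unstimulated one for 8 of 10 members in CD18wt Treg, and for 47.8% of the 11930 genes. In CD18Foxp3 Treg this held for 9 of 10 members and for 47.9% of the 12019 genes. There the remaining member, Socs3, was lower in every stimulated library, as were 19.2% of the genes. Separate libraries on stimulation, given below, are thus common among all genes. Fold changes below are those of the fit, relative to the typical gene. In bulk RNA a change in the share of cells that express a gene and a change in RNA per cell cannot be told apart.

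**Figure D2:**
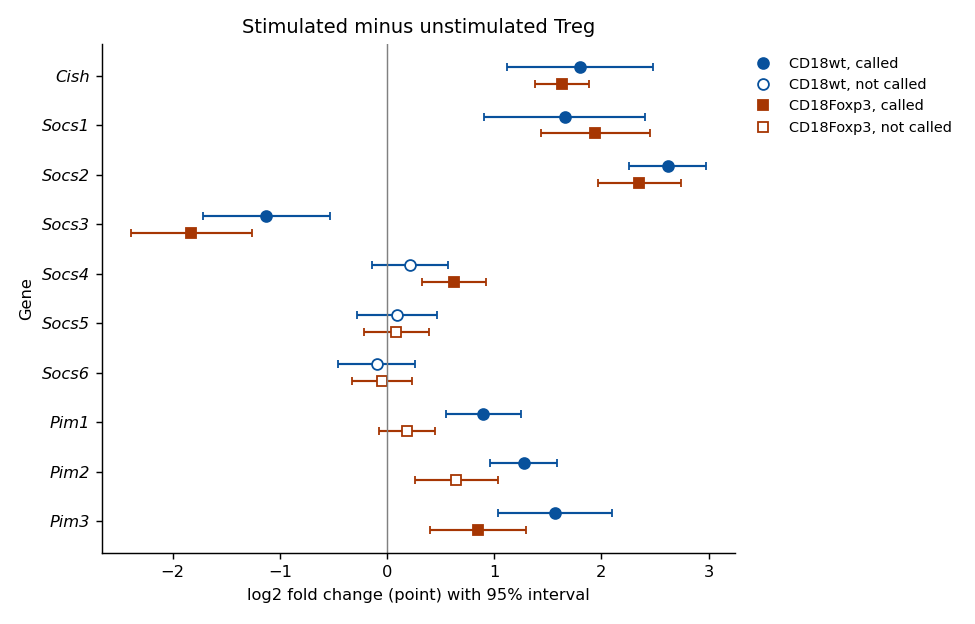
Log2 fold change of each member on stimulation, with its 95% interval, in CD18wt (blue circles) and CD18Foxp3 Treg (brown squares); filled symbols were called. Socs2 rose most in both genotypes, Socs3 alone fell, and the 3 PIM kinases lie further to the right in CD18wt than in CD18Foxp3 Treg.

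Cish encodes an SH2 protein that is induced by STAT5 and binds to the IL-2 receptor complex. The gene lies on chromosome 9 of GRCm38, from 107296026 to 107302784 on the plus strand. Its level was 47.4, 60.5 and 22.2 TPM in the unstimulated CD18wt libraries and 203, 169 and 224 TPM after stimulation. In CD18Foxp3 Treg it was 50.1, 57.4 and 58.0 TPM, and 199, 226 and 237 TPM after stimulation. In each genotype every stimulated library lay well above every unstimulated one, and replicate 3 of unstimulated CD18wt Treg was the low one. The log2 fold change was 1.80 (SE 0.30, adjusted p = 0.0013, edgeR) in CD18wt Treg and 1.63 (SE 0.11, adjusted p = 5.57e-06, edgeR) in CD18Foxp3 Treg. Without that low library it was 1.51 in CD18wt Treg (adjusted p = 1.16e-05, edgeR), and without replicate 3 of stimulated CD18wt Treg it was 1.73 and no longer called (adjusted p = 0.0149, edgeR). Between 80.8% and 86.4% of the Cish reads were placed uniquely. The antisense gene Gm17041 overlaps it on the other strand and held 66 to 666 reads, and since the library kit is not said to keep the strand, reads of both cannot be told apart. STAT factors bind a palindrome of the letters TTCNNNGAA, and Cish carries it in tandem. Among the 8 RefSeq windows found for 7 members (Cish, Socs1, Socs3, Socs4, Pim1 with 2 starts, Pim2 and Pim3; 250 bases before to 50 after the start, GRCm38.p6), the palindrome occurred in those of Cish and Socs3 alone. The RefSeq start of Cish lies inside the gene as given above, which begins at 107296026, and so do both matches. The 28 bases from Cish are shown because they hold both matches, which begin at base 1 and base 12 of the RefSeq transcript. They lie on the plus strand at chr9:107296655-107296682, with the matches in capitals.
Cish: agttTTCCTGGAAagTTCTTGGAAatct
Of all 32851 windows, 8.30% held at least 1 match and 0.457% held 2 or more. The palindrome reads the same on both strands, and a match is a description of the letters, not of binding.

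Socs1, the SOCS protein that binds JAK kinases directly and restrains interferon-γ as well as IL-2 signals, lies on chromosome 16 from 10782240 to 10785536 on the minus strand. Its level was 37.0, 51.5 and 25.3 TPM in unstimulated and 215, 152 and 104 TPM in stimulated CD18wt Treg. Socs1 in CD18Foxp3 Treg was at 33.2, 25.2 and 34.7 TPM, and 99.6, 179 and 185 TPM after stimulation. The groups were separate in both genotypes, and the stimulated libraries differed widely among themselves. The log2 fold change was 1.66 (SE 0.32, adjusted p = 0.0038, edgeR) in CD18wt and 1.94 (SE 0.22, adjusted p = 9.02e-05, edgeR) in CD18Foxp3 Treg. Without the low replicate 3 of unstimulated CD18wt Treg the Socs1 change was 1.47 there (adjusted p = 0.00995, edgeR). The Socs1 call in CD18wt Treg was lost without replicate 1 of the unstimulated libraries (1.63, adjusted p = 0.0239, edgeR) and without replicate 2 of the stimulated ones (1.59, adjusted p = 0.0222, edgeR).

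Socs2, best known as the brake on growth hormone signalling, had the largest change of the members. It lies on chromosome 10 from 95385362 to 95417180 on the minus strand. In unstimulated CD18wt Treg it was at 7.87, 10.7 and 10.1 TPM, near the bottom of the family, and in stimulated CD18wt Treg at 68.6, 82.1 and 80.8 TPM. In CD18Foxp3 Treg it went from 12.1, 10.6 and 13.0 TPM to 95.8, 73.9 and 64.6 TPM. The groups were far apart in both genotypes, and this change was called without each library in turn. The log2 fold change was 2.62 (SE 0.17, adjusted p = 1.86e-07, edgeR), a 6.14-fold rise, in CD18wt Treg and 2.35 (SE 0.17, adjusted p = 7.20e-06, edgeR), a 5.12-fold rise, in CD18Foxp3 Treg.

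Socs3, which binds the IL-6 receptor chain gp130 and blocks STAT3 activation, was the one member that fell. It lies on chromosome 11 from 117966079 to 117970047 on the minus strand. Its level was 120.4, 87.4 and 50.4 TPM in unstimulated CD18wt Treg and 61.9, 47.2 and 46.3 TPM in stimulated CD18wt Treg. Socs3 in CD18Foxp3 Treg was at 179, 137 and 155 TPM, and 33.5, 66.2 and 72.9 TPM after stimulation. The libraries overlapped in CD18wt Treg through the low unstimulated replicate 3, and were separate in CD18Foxp3 Treg. The log2 fold change was -1.12 (SE 0.26, adjusted p = 0.0062, edgeR) in CD18wt Treg and -1.82 (SE 0.25, adjusted p = 2.49e-04, edgeR) in CD18Foxp3 Treg. The Socs3 call in CD18wt Treg rested on the scale and on single libraries. On the TPM scale the fall was -0.65 (adjusted p = 0.0990, limma), and the call was also lost without replicate 2 of the unstimulated libraries (-1.13, adjusted p = 0.0193, edgeR) and without replicate 1 (-1.26, adjusted p = 0.0134), replicate 2 (-1.15, adjusted p = 0.0328) or replicate 3 (-1.03, adjusted p = 0.0352) of the stimulated ones. Without the low unstimulated replicate 3 it was -1.37 (adjusted p = 6.15e-05, edgeR). In CD18Foxp3 Treg the fall of Socs3 was called under all alternatives run, at -1.89 to -1.50, and without each library in turn, at -2.05 to -1.58. The Socs3 window is shown because it is the one with the STAT palindrome before the RefSeq start, at base -154. This stretch lies inside the gene as given above, which on the minus strand begins at 117970047. The 250 bases before the RefSeq start follow, minus strand, chr11:117969367-117969616 of GRCm38.p6, with the match in capitals.
Socs3: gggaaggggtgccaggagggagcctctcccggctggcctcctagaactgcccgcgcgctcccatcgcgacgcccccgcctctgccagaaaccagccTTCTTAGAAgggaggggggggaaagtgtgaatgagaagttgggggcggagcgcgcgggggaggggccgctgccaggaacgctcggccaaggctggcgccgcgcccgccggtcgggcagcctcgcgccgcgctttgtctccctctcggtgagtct
The members with the palindrome therefore moved in opposite directions on stimulation, Cish up and Socs3 down. Socs1, Pim1, Pim2 and Pim3 rose in CD18wt Treg without it in this window, which says only that these letters are not there.

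Socs4 and Socs5 are linked to the EGF receptor, and Socs6 to KIT and insulin receptor signalling. They had the smallest fold changes of the SOCS members in each genotype, though Socs4 was called in CD18Foxp3 Treg. Socs4 (chromosome 14, 47276931 to 47296102, plus strand) was at 20.1, 18.0 and 22.7 TPM in unstimulated and 34.4, 23.0 and 36.7 TPM in stimulated CD18wt Treg, a log2 fold change of 0.21 (SE 0.17, adjusted p = 0.307, edgeR). In CD18Foxp3 Treg it went from 19.9, 17.2 and 19.2 TPM to 42.1, 36.6 and 32.6 TPM, and the log2 fold change of 0.62 (SE 0.13, adjusted p = 0.0033, edgeR) was called. The stimulated CD18Foxp3 libraries were separate from the unstimulated ones, with the second CD18wt library the lowest of the stimulated set. The call of Socs4 in CD18Foxp3 Treg sat close to the 1.5-fold limit and was lost with upper-quartile scaling (0.56) and without replicate 1 of the stimulated CD18Foxp3 libraries (0.48). It was also lost without any 1 of the unstimulated CD18Foxp3 libraries (0.57 to 0.67, adjusted p from 0.0118 to 0.0229, edgeR). Socs5 (chromosome 17, 87107679 to 87137839, plus strand) lay between 11.3 and 21.3 TPM in all libraries, with log2 fold changes of 0.09 (95% interval -0.28 to 0.46) and 0.09 (-0.21 to 0.39) in CD18wt and CD18Foxp3 Treg. Socs6 (chromosome 18, 88665224 to 88927481, minus strand) lay between 6.77 and 11.4 TPM, with -0.10 (-0.46 to 0.26) and -0.05 (-0.32 to 0.23). On the TPM scale the Socs6 differences were above 0 in both genotypes (0.29 each, limma, not called), so that no direction is given for it.

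The PIM kinases rose together in CD18wt Treg. Pim1 (chromosome 17, 29490753 to 29496112, plus strand), the founding member of the family and a classical STAT5 target, was at 253, 219 and 153 TPM in unstimulated and 526, 502 and 499 TPM in stimulated CD18wt Treg. The log2 fold change was 0.90 (SE 0.16, adjusted p = 4.77e-04, edgeR), and 0.75 without the low unstimulated replicate 3 (adjusted p = 0.0011, edgeR). In CD18Foxp3 Treg Pim1 was at 296, 309.6 and 350.2 TPM unstimulated and at 395, 500.4 and 507 TPM stimulated, with a log2 fold change of 0.19 (95% interval -0.08 to 0.45, adjusted p = 0.201, edgeR) that was not called. After stimulation the Pim1 libraries of the genotypes overlapped, at 499 to 526 TPM in CD18wt and 395 to 507 TPM in CD18Foxp3 Treg. Before stimulation they did not overlap. In CD18Foxp3 Treg every stimulated library still lay above every unstimulated one for Pim1. Between 87.9% and 91.8% of Pim1 reads were placed uniquely, and an antisense gene that overlaps it, Gm26885, held 5 to 67 reads.

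Pim2 (X chromosome, 7878262 to 7883432, plus strand), a kinase that supports growth and survival of lymphocytes, was at 37.3, 32.7 and 34.8 TPM in unstimulated and 99.98, 99.9 and 136 TPM in stimulated CD18wt Treg, a log2 fold change of 1.28 (SE 0.14, adjusted p = 1.27e-05, edgeR). In CD18Foxp3 Treg it went from 40.2, 35.1 and 38.7 TPM to 83.2, 90.1 and 56.3 TPM, with 0.65 (SE 0.17, adjusted p = 0.0103, edgeR). Every stimulated library was above every unstimulated one, and the adjusted p for Pim2 in CD18Foxp3 Treg lay just past the limit. It was called by DESeq2 (adjusted p = 0.0021) and by 8 of the other 10 alternatives, among them the replicate block (0.62, adjusted p = 0.0045, edgeR), and without replicate 3 of stimulated CD18Foxp3 Treg (0.81, adjusted p = 5.51e-04, edgeR).

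Pim3 (chromosome 15, 88862186 to 88865726, plus strand) was at 36.4, 38.5 and 16.8 TPM in unstimulated and 109, 125 and 123 TPM in stimulated CD18wt Treg, with a log2 fold change of 1.57 (SE 0.24, adjusted p = 3.60e-04, edgeR). Without the low unstimulated replicate 3, Pim3 rose by 1.31 (adjusted p = 3.10e-05, edgeR). In CD18Foxp3 Treg it went from 36.7, 34.6 and 39.5 TPM to 56.8, 107 and 93.4 TPM, with 0.85 (SE 0.20, adjusted p = 0.0053, edgeR). Groups were separate in both genotypes, and the first stimulated CD18Foxp3 library was low. The Pim3 call in CD18Foxp3 Treg was lost without any 1 of the 3 unstimulated libraries (0.81 to 0.88, adjusted p from 0.0189 to 0.0259, edgeR) and without replicate 2 (0.67, adjusted p = 0.0229) or 3 (0.76, adjusted p = 0.0168) of the stimulated ones.

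**Figure D3:**
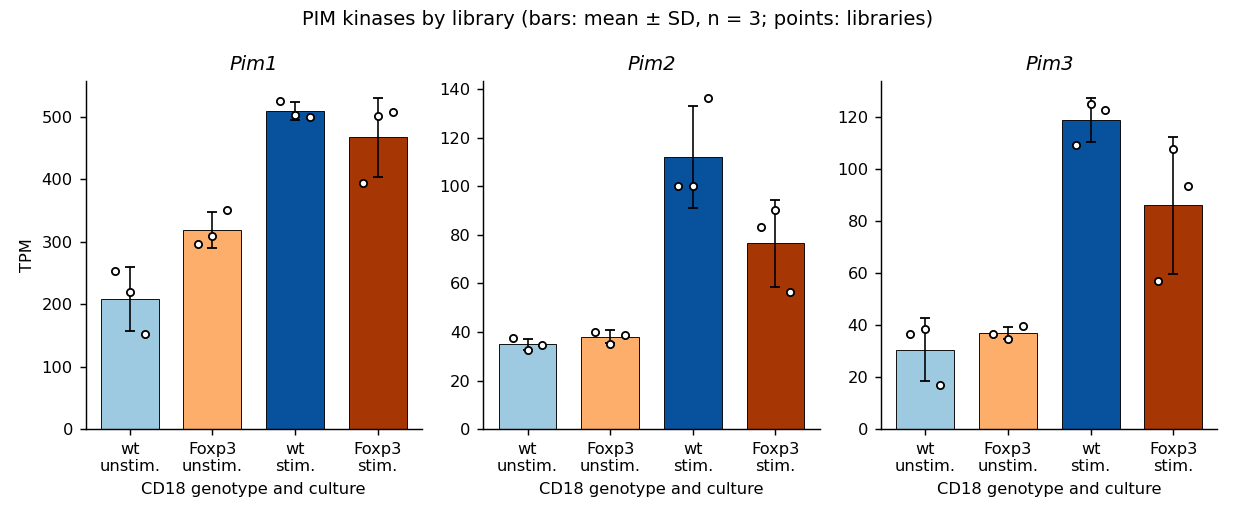
TPM of Pim1, Pim2 and Pim3 in the 4 groups; bars are means of 3 libraries with SD, points are libraries, and each axis starts at 0. Pim1 is higher in CD18Foxp3 than in CD18wt Treg before stimulation (318 against 208 TPM), and Pim2 (76.5 against 112 TPM) and Pim3 (85.9 against 119 TPM) are lower after it.

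The second question is whether loss of CD18 changed these genes. In unstimulated Treg, 0 of 10 members were called between the genotypes by edgeR, where 0.135% of 11829 genes tested were called. DESeq2 called 1 member, Pim1, and limma 0. With an unadjusted p under 0.05 there were 2 members, Socs3 and Pim1, where 9.59% of all genes were under it. Pim1 was higher in all 3 CD18Foxp3 libraries (296 to 350.2 TPM) than in all 3 CD18wt libraries (153 to 253 TPM), and its log2 fold change was 0.59 (SE 0.14, adjusted p = 0.132, edgeR). For Pim1 an exact permutation test, two-sided, of the log2(TPM + 1) values gave p = 0.1, the smallest that 3 against 3 libraries allow. With DESeq2 the adjusted p was 0.0018, with edgeR and no filter on low counts 8.61e-07, and over the other alternatives it lay between 0.108 and 0.608. Without replicate 3 of unstimulated CD18wt Treg the Pim1 difference was 0.44 (adjusted p = 0.0162, edgeR). Socs3 was likewise higher in all CD18Foxp3 libraries (137 to 179 TPM against 50.4 to 120.4 TPM), with 0.85 (SE 0.30, adjusted p = 0.465, edgeR) and 0.61 without that library (adjusted p = 0.191, edgeR). Libraries of the genotypes did not overlap for these 2 of 10 members, nor for 8.74% of all 11829 genes, higher in CD18Foxp3, and 6.90%, lower. The other 8 members overlapped, with log2 fold changes from -0.31 for Socs1 (95% interval -0.80 to 0.18) to 0.33 for Cish (-0.55 to 1.21). Without replicate 3 of unstimulated CD18wt Treg, Cish differed by 0.041, Pim3 by -0.011 and Socs1 by -0.50, none of them called. These intervals still allow differences of about the size seen for Pim1 in Cish, Socs1, Socs2 and Pim3, and do not show that the genotypes are alike.

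In stimulated Treg, 0 of 10 members were called by edgeR, DESeq2 or limma, where edgeR called 0% of 11930 genes tested. The deleted gene Itgb2 was thus not called by edgeR either, though its libraries were separate (329 to 331 TPM in CD18wt, 131 to 202 TPM in CD18Foxp3 Treg). So the lack of called members does not show that the genotypes are alike. An unadjusted p under 0.05 was found for 2 members, Pim2 and Pim3, and for 4.89% of all genes. Pim2 was lower in all 3 CD18Foxp3 libraries (56.3 to 90.1 TPM) than in all 3 CD18wt libraries (99.9 to 136 TPM), with a log2 fold change of -0.53 (SE 0.19, unadjusted p = 0.0165, adjusted p = 0.910, edgeR). Pim3 was lower in the same way (56.8 to 107 TPM against 109 to 125 TPM), with -0.47 (SE 0.21, unadjusted p = 0.0453, adjusted p = 0.995, edgeR). Neither difference passed the correction, and the exact permutation test, two-sided, gave p = 0.1 for each. Libraries did not overlap for these 2 of 10 members, nor for 4.41% of all 11930 genes, lower in CD18Foxp3, and 5.02%, higher. Without replicate 1 of stimulated CD18Foxp3 Treg, the lowest of its group for 6 members and for 46.4% of 11642 genes, Pim3 differed by -0.25. Cish, Socs1, Socs2, Socs3, Socs4, Socs5, Socs6 and Pim1 overlapped between the genotypes, with log2 fold changes from -0.12 for Socs5 to 0.27 for Socs4. The narrowest of their intervals was that of Cish, 0.17 (95% interval -0.14 to 0.48).

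**Figure D4:**
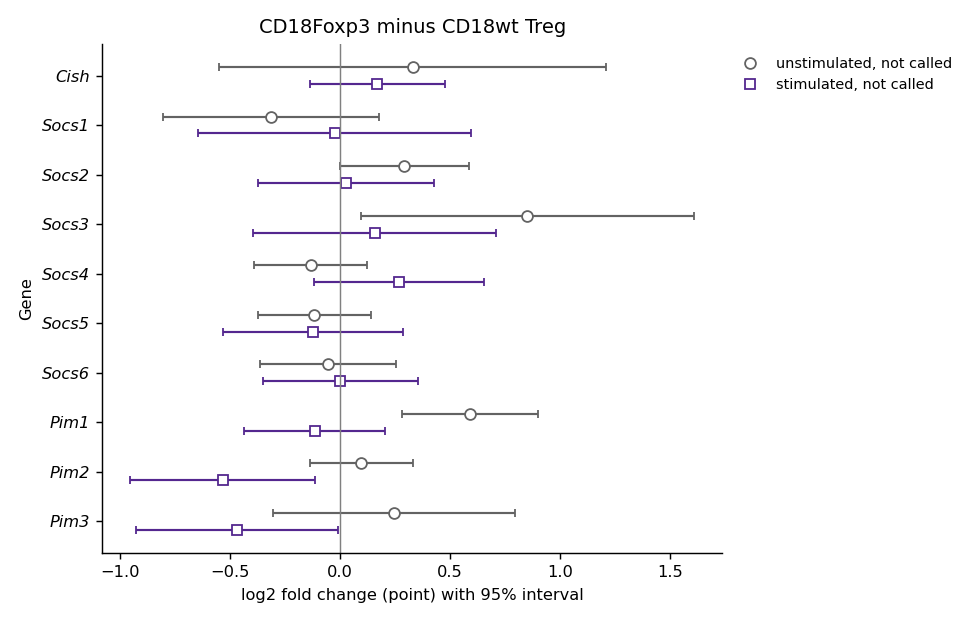
Log2 fold change of each member between CD18Foxp3 and CD18wt Treg, with its 95% interval, in unstimulated (grey circles) and stimulated Treg (purple squares); open symbols, as here for all 10 members, were not called. Pim1 and Socs3 lie to the right of 0 in unstimulated Treg, and Pim2 and Pim3 to the left in stimulated Treg.

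Whether stimulation acted differently in the 2 genotypes was tested by the interaction term over all 12 libraries. It called 0 of 10 members by edgeR, DESeq2 or limma, where edgeR called 0% of 12636 genes tested. With an unadjusted p under 0.05 there were 2 members, Pim1 and Pim2, and 3.84% of all genes. All 3 PIM kinases had a smaller rise in CD18Foxp3 Treg, by -0.71 for Pim1 (95% interval -1.16 to -0.27, unadjusted p = 0.0036), -0.64 for Pim2 (-1.12 to -0.15, unadjusted p = 0.0128) and -0.72 for Pim3 (-1.47 to 0.02, unadjusted p = 0.0554). None passed the correction (adjusted p = 0.987 for each, edgeR). Without replicate 3 of unstimulated CD18wt Treg the terms of Pim1, Pim2 and Pim3 were -0.57, -0.67 and -0.47. So Pim1, called on stimulation in CD18wt and not in CD18Foxp3 Treg, was not shown to differ between them, and the same holds for Pim2 and, in the opposite sense, Socs4 (0.40, 95% interval -0.07 to 0.87). Among the SOCS genes the largest term was that of Socs3, -0.70 (-1.61 to 0.21).

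The tables also count reads in introns, which give a second readout of the same libraries. The libraries were made from poly(A)-selected RNA. Intron reads can come from RNA that is not yet spliced or from introns kept in mature RNA, and these were not told apart. By intron reads, 2 of 10 members were called higher on stimulation in CD18wt Treg, Cish and Socs2, and none lower, where 2.71% of 9492 genes tested were called higher and 5.09% lower. In CD18Foxp3 Treg, Cish and Socs2 were called higher and Pim3 lower, where 15% of 10260 genes tested were called higher and 15.4% lower. Socs2, with 22288 bases outside its exons, held 10, 4 and 14 intron reads in unstimulated and 144, 165 and 255 in stimulated CD18wt libraries. In CD18Foxp3 libraries it held 14, 5 and 13, and 247, 170 and 166 after stimulation. These rises were 3.58 (SE 0.54, adjusted p = 3.25e-04, edgeR) and 3.63 (SE 0.32, adjusted p = 3.17e-14, edgeR) on the log2 scale, above those of its exon reads. Cish held 25, 40 and 6 intron reads in unstimulated and 143, 135 and 195 in stimulated CD18wt libraries, a change of 2.36 (SE 0.38, adjusted p = 5.45e-04, edgeR). Its annotation leaves only 340 bases outside exons, so these reads cover a short stretch.

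Socs3 held 35, 57 and 8 intron reads in unstimulated and 5, 1 and 21 in stimulated CD18wt libraries, and 64, 63 and 53 against 0, 8 and 24 in CD18Foxp3 libraries. The intron reads of Socs3 lay lower after stimulation, as its exon reads did, by -2.39 (adjusted p = 0.0262, edgeR) and -2.94 (adjusted p = 0.0463, edgeR), neither of which was called. In CD18wt Treg they were called without replicate 3 of the unstimulated libraries (-2.63, adjusted p = 0.0066, edgeR). In CD18Foxp3 Treg they were called without replicate 1 (-2.29, adjusted p = 5.91e-05, edgeR) or 3 (-4.58, adjusted p = 8.34e-13, edgeR) of the stimulated libraries, with the scaling factors of the exon reads (-2.63, adjusted p = 0.0067, edgeR) and with the replicate number as a block (-3.25, adjusted p = 0.0032, edgeR).

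Pim3 was the one member called in opposite directions by intron and exon reads, in CD18Foxp3 Treg. It held 84, 75 and 78 intron reads in unstimulated and 15, 12 and 19 in stimulated CD18Foxp3 libraries, all lower, while its exon reads rose. The annotation of Pim3 leaves 1114 bases outside exons, so these reads cover a short stretch. The intron change was -2.89 (SE 0.35, adjusted p = 8.13e-10, edgeR) against 0.85 in exons, and it was called without each library in turn and in both alternatives. In CD18wt Treg Pim3 held 55, 57 and 1 intron reads unstimulated and 13, 19 and 27 stimulated, a difference of -1.18 (adjusted p = 0.233, edgeR) that was not called and was -1.67 (adjusted p = 0.0196, edgeR) without unstimulated replicate 3. Pim1 and Pim2, whose exon reads rose in CD18wt Treg, had intron differences of 0.20 (95% interval -0.53 to 0.92) and -0.0024 (-0.87 to 0.87) there. In CD18Foxp3 Treg the intron difference of Pim1 was -0.52 (-0.90 to -0.14, adjusted p = 0.0236, edgeR) against 0.19 in exons, and that of Pim2 was -0.26 (-0.96 to 0.44) against 0.65. Socs4 had intron differences of -1.03 (-2.52 to 0.46) in CD18wt and -0.51 (-1.66 to 0.63) in CD18Foxp3 Treg, against 0.21 and 0.62 in exons. None of these intron differences was called. Socs1 had 0.51 (-0.93 to 1.94) in CD18wt and 0.20 (-0.73 to 1.14) in CD18Foxp3 Treg, against 1.66 and 1.94 in exons.

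**Figure D5:**
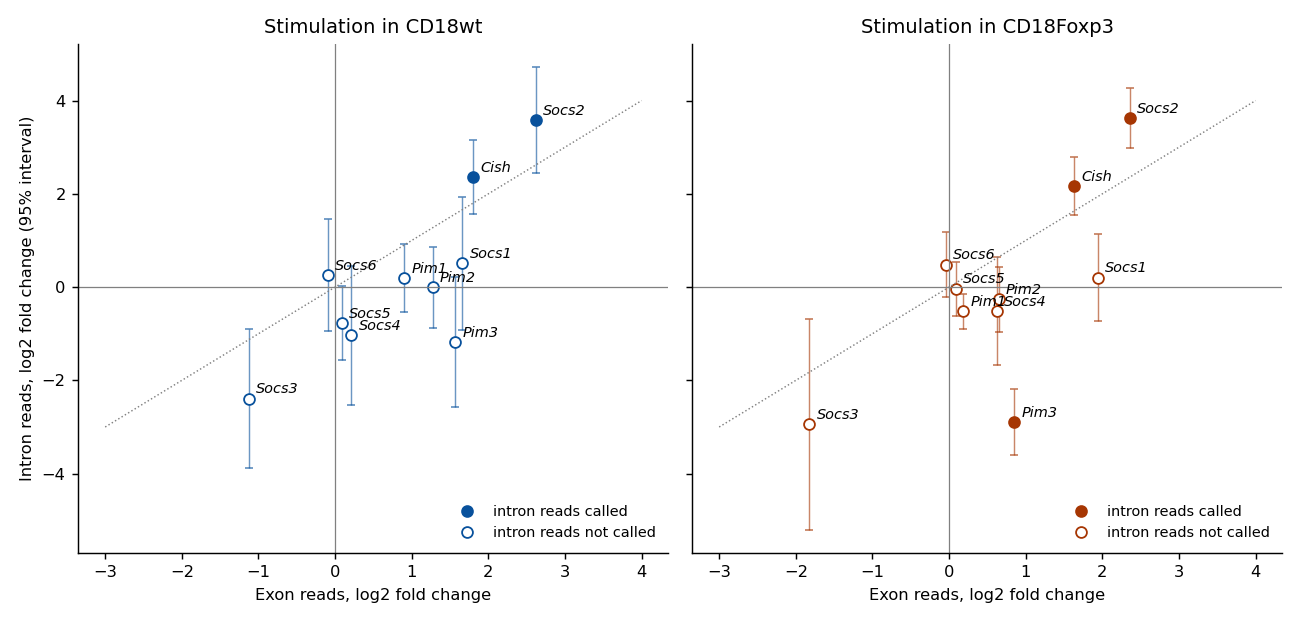
Log2 fold change on stimulation of exon reads (horizontal) and intron reads (vertical, with 95% interval) for the 10 members in CD18wt (left) and CD18Foxp3 Treg (right); filled symbols mark called intron changes and the dotted line marks equal change. Cish and Socs2 lie above the line at upper right, Socs3 at lower left, and Pim3 below 0 on the intron axis in both panels.

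Many transcripts of this kind are short-lived, and one sequence feature known for this is the AU-rich heptamer TATTTAT in the 3′ untranslated region. It was searched on the transcript strand, overlaps counted, in the GENCODE vM21 protein-coding transcript with the longest such region for each gene. Pim1 held 4 copies, Cish 3, Pim3 and Socs3 2 each, and Socs2, Socs4 and Socs5 1 each, while Socs1 and Socs6 held 0 in regions of 1993 and 4019 bases. Of 11132 genes tested with such a region, 30.4% held at least 1 copy and 3.89% held 3 or more. Per kilobase that is 2.93 for Pim1, 2.07 for Pim3, 1.36 for Socs3 and 1.33 for Cish, against 0.289 over all these genes. The annotation gave no such region for the Pim2 transcript used. Genes that rose (Pim1, Cish) and the one that fell (Socs3) were both among those with several copies.

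The rest of the loop was read from 7 lists of pathway genes, whose counts can be set beside the shares of all genes called on stimulation. In the edgeR fit, the counts in CD18Foxp3 Treg differed from those given below for CD18wt Treg by at most 2 genes in either direction in each list. Of 19 cytokine receptor chains tested, 2 were called higher and 12 lower on stimulation in CD18wt Treg. Il2ra, the high-affinity chain of the IL-2 receptor, went from 133, 170.2 and 156 TPM to 883, 926 and 1131 TPM (log2 fold change 2.27, SE 0.16, adjusted p = 3.77e-07, edgeR). Il12rb1 rose as well (2.12), while Il9r (-3.25) and Il7r (-2.98), the receptor chains for IL-9 and IL-7, fell most. The signalling chains of the IL-2 receptor moved less, with -0.36 for Il2rb (not called) and -0.71 for Il2rg (called, but not on the TPM scale, -0.31). Only some of the falls hold on the TPM scale, where 6 of 18 receptor chains were called lower and 2 higher. Counts of list genes on the TPM scale, here and below, are to be set beside those of all genes on it. There 3423 of 11661 genes were called higher and 786 lower in CD18wt Treg (limma).

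Of 11 JAK kinases and STAT factors, 1 was called higher and 4 lower. Stat5a, one of the pair of STAT5 genes, rose from 40.3, 43.5 and 39.9 TPM to 80.5, 72.4 and 105 TPM (0.65, SE 0.14, adjusted p = 0.0014, edgeR), though the Stat5a call was lost with upper-quartile scaling (0.57) and without unstimulated replicate 1 (0.62, adjusted p = 0.0111, edgeR) or stimulated replicate 3 (0.52). Jak1 (-1.21), Jak3 (-0.91) and Stat4 (-1.38) fell, and Stat5b was not called (-0.40). In TPM, 2 of the 11 were called lower and 1 higher, and Jak3 was no longer called (-0.50, adjusted p = 0.0572, limma).

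Of 13 other inhibitors of the pathway 1 was called higher and 2 lower. Pias2, a SUMO ligase, rose (0.89), and the phosphatase gene Ptprc (-0.83) and the ubiquitin ligase gene Cblb (-0.68) fell. In TPM, 3 of these 13 were called higher and 0 lower, and Ptprc (-0.42) and Cblb (-0.27) were not called, the Cblb call being lost also without unstimulated replicate 1 (-0.60, adjusted p = 0.0105, edgeR). Socs7, the remaining gene of the SOCS family, went from 15.1, 14.4 and 15.7 TPM to 29.2, 25.7 and 28.6 TPM in CD18wt Treg (0.48, SE 0.13, adjusted p = 0.0085, edgeR), under the 1.5-fold limit. Of 8 genes tested from a list of ubiquitin ligase genes around the SOCS box, 2 were called higher and 0 lower. These were the scaffold Cul2 (1.63) and the NEDD8 conjugating enzyme Ube2m (0.81). Their rise does not show a change in the ligase of SOCS proteins. Cul5, the cullin that SOCS proteins mainly use, had 0.49 (adjusted p = 0.0139, edgeR) and was not called; it is named after its value was seen.

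Of 13 other STAT5 target genes, 6 were called higher and 3 lower. Lif rose from 3.48, 3.21 and 1.25 TPM to 30.2, 35.7 and 59.7 TPM (3.55, SE 0.35, adjusted p = 3.31e-05, edgeR) and Gzmb, a cytotoxic protease, by 3.52. Bcl6, a repressor that STAT5 opposes, fell (-2.75), as did the survival gene Bcl2 (-0.75), the latter not on the TPM scale (-0.40, adjusted p = 0.195, limma). The Bcl2 call held with only 1 of the 6 libraries left out, stimulated replicate 3, and was lost without any of the other 5 (-0.76 to -0.61, adjusted p from 0.0215 to 0.0316, edgeR). Of 13 PIM substrates 2 were called higher and 2 lower. The cell cycle inhibitor Cdkn1a rose by 5.76 and the phosphatase Cdc25a by 2.03, while the transcription factor Foxo1 (-1.39) and the cell cycle inhibitor Cdkn1b (-0.88) fell. The Cdkn1b call was lost on the TPM scale (-0.51, adjusted p = 0.127, limma) and without unstimulated replicate 1 or 2 or stimulated replicate 3 (-0.86 to -0.81, adjusted p from 0.0152 to 0.0163, edgeR). In TPM, 6 of these 13 were called higher and 1 lower in CD18wt Treg, but 3 higher and 3 lower in CD18Foxp3 Treg (limma). PIM kinases act on these proteins, and their RNA says nothing of that. Of 15 ligands listed, 7 had enough reads in CD18wt Treg. Of these 4 were called higher and 1 lower. Il2 was at 0.551, 0 and 0.646 TPM in unstimulated and 141, 67.3 and 41.0 TPM in stimulated CD18wt Treg, and Il3 had no read in any unstimulated library and 11.1 to 25.2 TPM in stimulated CD18wt Treg. Il21 fell (-2.10; not called by limma without a filter, -1.42), and it was the one listed pathway gene called between the genotypes in unstimulated Treg, where it lay at 6.15, 9.90 and 9.65 TPM in CD18wt and 2.40, 2.64 and 2.60 TPM in CD18Foxp3 Treg (adjusted p = 0.0058, edgeR). The Il21 call between genotypes was lost in several settings, since no gene at all was called in this comparison by limma on TPM, in 1 fit of all 12 libraries, or without CD18wt replicate 2 or CD18Foxp3 replicate 1 or 2. None of the 7 lists had another gene called between the genotypes in either culture.

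Likeness of pattern was measured by Pearson's r of log2 CPM (library-scaled counts) across the 12 libraries and 12636 genes. These libraries share 2 culture states, so a high r mainly says that a gene separates stimulated from unstimulated Treg, and r is given as a description. Most like Cish were Stk35 (0.992), Lrrc32 (0.986), which encodes the Treg surface protein GARP, and Enkd1 (0.985). Most like Socs1 were Zfhx3 (0.974), Rcan3 (0.971) and Slc48a1 (0.964). Most like Socs2 were Ppa1, Plp2 and Ppif (each 0.994). Most like Socs3 were Vopp1 (0.970), Rpusd4 (0.960) and Cyth4 (0.960). For Pim1 the values were lower, with Ppp1r13l (0.941), Cdc42bpb (0.935) and Ccnyl1 (0.926). Most like Pim2 were Bach2 (0.964), Tacc2 (0.950) and Eif4ebp1 (0.949). No member was among the 3 genes closest to any of these 6.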

How the data were processed

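Poly(A)-selected RNA of 12 libraries, 3 per group, was sequenced with 59-base reads after 15 cycles of amplification. Trimming, alignment to GRCm38 and gene-level counting were done by the authors in CLC Genomics Workbench at its default settings, and 1 table per library was deposited. The deposited counts are whole reads per gene in exons and in introns, not normalised. The deposited TPM values are those exon reads divided by exon length and scaled to the same total in every library. The RPKM column and other derived columns were not used here. Interval widths cover the spread between libraries, and amplified reads without molecular identifiers are not independent molecules.

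From the counts, edgeR 4.0.16 (R 4.3.3; robust quasi-likelihood test, TMM scaling, filterByExpr with a minimum count of 10) was fitted over all genes for the 2 groups compared, and over all 12 libraries for the interaction. Genes were called at 1.5-fold and an adjusted p of 0.01, after the study's thresholds. Intron reads were fitted likewise. Exact permutation tests, whose smallest p is 0.1 with 3 against 3 libraries, were run on log2(TPM + 1) in SciPy 1.17.1. Alternatives were DESeq2 1.42.0, other scalings, other filters, limma 3.58.1 on TPM with a pseudocount of 1 or 0.1, uniquely placed reads, the replicate number as a block, 1 fit of all 12 libraries and each library left out. The scripts were tested on simulated counts. The members and the gene lists were chosen with earlier results of these data known. All 10 members were reported, with the core genes Stat5a, Stat5b, Jak1, Jak3, Il2ra, Il2rb, Il2rg and Socs7 and, from each pathway list, the 2 called genes with the largest rise and the 2 with the largest fall in CD18wt Treg. For 6 members the 3 genes of highest Pearson's r are given. Gene coordinates are those of the tables and equal GENCODE vM21 for all 10 members, and promoter windows came from RefSeq (GRCm38.p6).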

Additional observations from a re-analysis of the deposited data

How the results depend on the processing

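Between the genotypes in unstimulated Treg, 16 genes were called by edgeR, against 79 by DESeq2, 134 without a filter, 0 by limma on TPM with either pseudocount or without a filter, 0 in 1 fit of all 12 libraries, 42 at an adjusted p of 0.05 with no fold, and 0 to 44 with 1 library left out (44 without replicate 3 of CD18wt). One member, Pim1, was called there by DESeq2 and without a filter (1 in each). In stimulated Treg 0 genes were called, against 22 by DESeq2, 61 without a filter and 0 to 2 with 1 library left out. The interaction called 0 genes, against 1 by DESeq2, 31 without a filter and 1 by limma without a filter. With 1 library left out, 5 to 7 members were called on stimulation in CD18wt Treg and 4 to 6 in CD18Foxp3 Treg. The cause of these moves was not tested.

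Labels number the replicates alike in every group. Deviations of same-numbered libraries correlated at 0.096, -0.02 and -0.095 between the CD18wt cultures. Between the CD18Foxp3 cultures they correlated at 0.135, 0.070 and 0.147, where each library correlated best with its own number. Between genotypes the values were -0.132 to 0.085, which does not bear on pairs within a genotype. These values do not settle whether the cultures are paired. The labels do not state pairs, so the block was run as an alternative only. With the replicate block, 41 genes were called between genotypes in unstimulated and 1 in stimulated Treg, and on stimulation 7 members in each genotype, Pim2 being added in CD18Foxp3 Treg.

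None of the values whose sign turned was called under the setting that turned it. On the TPM scale (pseudocounts 1 and 0.1) these were Socs6 in CD18wt (0.29, 0.32) and CD18Foxp3 Treg (0.29, 0.32), Stat5b in CD18wt Treg (0.0023, 0.0022) and Il2rb in CD18wt (0.038, 0.038) and CD18Foxp3 Treg (0.35, 0.35; 0.00015 without a filter). Between genotypes in stimulated Treg, Socs6 was 0.022 with upper-quartile scaling, 0.0081 without a filter and 0.00082 with 10 reads in every library. For the interaction, Socs5 was 0.0076 by DESeq2, 0.0079 with RLE, 0.0063 with upper-quartile scaling and 0.0012 with the replicate block, and Socs6 was -0.00073 and -0.0025 on the TPM scale. Intron reads of Pim2 were 0.39 with exon scaling and 0.0058 with the block in CD18wt Treg and 0.10 with exon scaling in CD18Foxp3 Treg, and those of Socs5 were 0.33 there.

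With 1 library left out, signs turned for Socs6 (-0.22 to 0.014) and Socs5 (-0.11 to 0.21) on stimulation in CD18wt Treg, and for Socs5 (-0.019 to 0.13) and Il2rb (-0.092 to 0.062) in CD18Foxp3 Treg. Between genotypes they turned for Socs6 (-0.18 to 0.062) and Pim3 (-0.011 to 0.42) in unstimulated Treg, and for Socs1 (-0.27 to 0.24), Socs2 (-0.17 to 0.14), Socs3 (-0.060 to 0.42), Socs5 (-0.25 to 0.051) and Socs6 (-0.020 to 0.016) in stimulated Treg. For the interaction they turned for Cish (-0.47 to 0.12), Socs5 (-0.14 to 0.19) and Socs6 (-0.072 to 0.17). By intron reads they turned for Pim1 (-0.15 to 0.41), Pim2 (-0.11 to 0.13) and Socs6 (-0.047 to 0.55) in CD18wt Treg and for Socs1 (-0.14 to 0.58) and Socs5 (-0.28 to 0.13) in CD18Foxp3 Treg. Of 540 member values under alternatives, 509 kept their sign and their side of the threshold, as did 319 of 360 with 1 library left out.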
